A study of Mus musculus with 9 samples.

Results

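The genes described here are 10 mouse genes used as transcription factors and markers of trophoblast: Cdx1, Cdx2, Elf5, Tfap2a, Tfap2c, Ascl2, Ets2, Dlx3, Plet1 and Plac1. They were taken by gene symbol from a count table of 24421 genes, and all 10 were found in it. Elf5 was too sparsely counted for the test across genes, so that 9 of the 10 are among the 14513 genes tested.

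The RNA came from D3, a mouse embryonic stem (ES) cell line that grew feeder-free on gelatin in serum with leukemia inhibitory factor. There were 3 groups of 3 libraries: cells that overexpress LAMP2A and spent 72 h in 4 mM DM-αKG (LAMP2A+DM-αKG), the same overexpressing cells without the compound (LAMP2A), and cells with a stable pCDH control vector (VT). LAMP2A is the splice form of LAMP2 that serves as lysosomal receptor of chaperone-mediated autophagy, and DM-αKG (dimethyl α-ketoglutarate) is a cell-permeable ester of the metabolite α-ketoglutarate. The labels do not say which promoter drives LAMP2A, whether a line came from 1 clone or whether libraries came from separate cultures, so that p-values measure the spread between these libraries, which may be technical.

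Trophoblast is the outer lineage of the embryo, which forms the placenta, and ES cells stand for the inner cells that do not enter it. CDX2 sets up the outer layer and, with ELF5, EOMES and TFAP2C, keeps trophoblast stem cells dividing, while OCT4 (Pou5f1) holds Cdx2 down in ES cells and DNA methylation keeps Elf5 shut there. ASCL2, DLX3 and the placental genes act or appear later, as the branches of the placenta form.

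The libraries held 23636074 to 32809875 counts. Levels are CPM, the count scaled to library size with TMM factors, and a count of 0 in a library allows at most 0.0912 to 0.126 CPM (3 counts), which covers counting error only. Lamp2 averaged 97.2 ± 2.00 CPM in LAMP2A+DM-αKG, 404 ± 2.24 in LAMP2A and 58.1 ± 1.64 in VT (SD, n = 3 each). A gene-level count cannot tell the introduced LAMP2A from other Lamp2 transcripts, and cells given DM-αKG differed from LAMP2A cells in Lamp2 as well as in the compound. The ES cell factors were counted in all groups: Pou5f1 averaged 979.9 ± 7.27 CPM in LAMP2A+DM-αKG, 323 ± 4.64 in LAMP2A and 1385 ± 89.0 in VT.

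In LAMP2A cells, 7 of the 10 genes were higher than in VT and 2 were lower (85.1% of all tested genes were called in either direction), at a Benjamini-Hochberg adjusted p under 0.05 in edgeR's quasi-likelihood test. Plac1, Cdx2, Tfap2a, Dlx3 and Ascl2 rose by more than 2-fold, Plet1 and Tfap2c by less, and Cdx1 and Ets2 fell. In these bulk libraries, more cells of a type and more RNA per cell cannot be told apart. Over all genes tested, 43.0% were called higher and 42.1% lower in this comparison. At least 2-fold changes were called higher for 19.8% of tested genes and lower for 9.61%, against 5 and 1 of the 10 genes here. With DM-αKG, 3 of the 10 genes were higher than in LAMP2A and 5 were lower, and Dlx3 was not called. Over all tested genes 83.2% were called here, 41.1% higher and 42.1% lower. By at least 2-fold, 1 was higher and 3 were lower (8.06% and 17.6% of all tested genes). Against VT, cells given DM-αKG had 3 of the 10 higher and 2 lower, where 58.7% of all tested genes were called, 29.3% higher and 29.4% lower. By at least 2-fold, 2 were higher and 1 was lower (3.93% and 2.63% of all tested genes). Libraries of the compared groups did not overlap for 43.1% (higher) and 41.9% (lower) of tested genes in LAMP2A against VT, 42.3% and 43.2% in LAMP2A+DM-αKG against LAMP2A, and 30.9% and 30.3% in LAMP2A+DM-αKG against VT, to be read beside each statement of overlap on the genes that follow. The median log2 fold change of the 9 tested genes was 1.33 for LAMP2A against VT, -0.21 for LAMP2A+DM-αKG against LAMP2A and -0.07 for LAMP2A+DM-αKG against VT. Over all tested genes these medians were 0.01, -0.00 and 0.00. Cdx2 and Plac1 were counted enough to be tested through their LAMP2A libraries alone, which bears on the medians of the 9 genes.

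**Figure D1:**
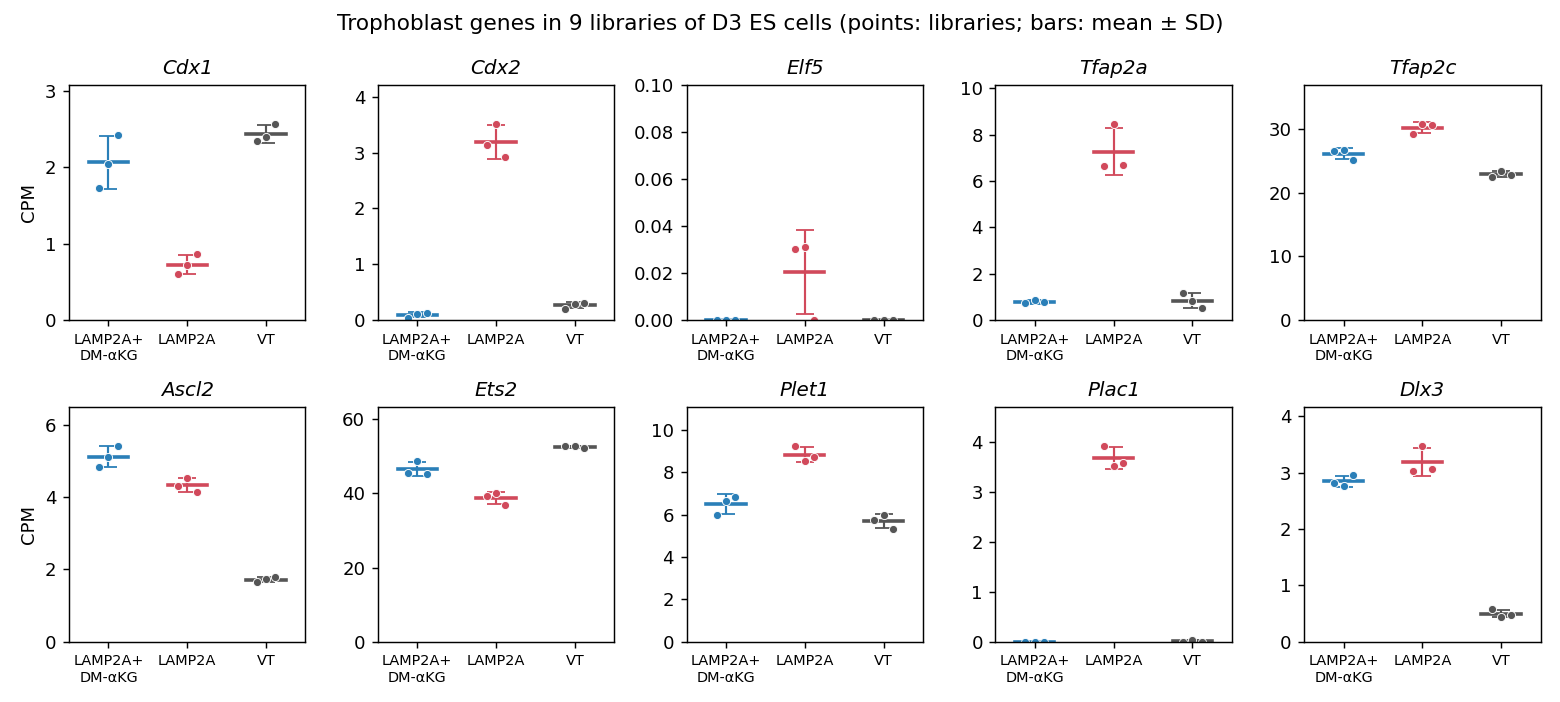
CPM (TMM-scaled, linear axis from 0) of the 10 genes in each library, with points for the 3 libraries of LAMP2A+DM-αKG, LAMP2A and VT and lines with bars for the mean ± SD. Cdx2, Tfap2a and Plac1 are high in LAMP2A alone, Dlx3 and Ascl2 are high in both groups that carry LAMP2A, and Cdx1 and Ets2 are lowest in LAMP2A.

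Cdx2, Plet1 and Plac1 were highest in LAMP2A, while Ascl2 was high with and without DM-αKG. Upstream sequences are shown for these 4 of the 10 genes. Each is the 250 bases before an annotated start, 5′ to 3′ on the gene's strand, from the RefSeq promoter table for GRCm38.p6, which matched 7 of the 10 genes (not Cdx1, Tfap2c and Dlx3). Capitals mark matches, on either strand, to any of 6 motifs: the octamer ATGCAAAT that OCT4 binds, the TATA box TATAAA, the GATA motif AGATAA, the AP-2 motif GCCNNNGGC, the TEAD motif GGAATG and the GC box GGGCGG. Where a gene has 2 listed starts (Plac1), the outermost is shown.
Cdx2, chr5:147307250-147307499, minus strand: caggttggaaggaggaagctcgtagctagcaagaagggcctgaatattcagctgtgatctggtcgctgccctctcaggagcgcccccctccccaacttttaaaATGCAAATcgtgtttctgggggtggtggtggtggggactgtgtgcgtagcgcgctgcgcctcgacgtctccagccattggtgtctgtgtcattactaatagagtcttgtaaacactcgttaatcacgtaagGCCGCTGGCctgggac
Plet1, chr9:50494275-50494524, plus strand: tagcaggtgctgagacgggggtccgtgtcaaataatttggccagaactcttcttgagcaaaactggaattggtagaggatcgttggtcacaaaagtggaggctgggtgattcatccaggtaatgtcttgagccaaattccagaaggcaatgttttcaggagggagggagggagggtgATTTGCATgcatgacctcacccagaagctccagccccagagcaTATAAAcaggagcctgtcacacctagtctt
Plac1, chrX:53240111-53240360, minus strand: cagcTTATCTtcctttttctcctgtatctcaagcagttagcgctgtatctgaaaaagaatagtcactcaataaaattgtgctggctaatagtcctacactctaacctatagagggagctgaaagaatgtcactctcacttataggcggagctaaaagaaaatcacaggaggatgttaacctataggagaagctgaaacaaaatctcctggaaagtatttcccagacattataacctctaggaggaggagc
Ascl2, chr7:142969265-142969514, minus strand: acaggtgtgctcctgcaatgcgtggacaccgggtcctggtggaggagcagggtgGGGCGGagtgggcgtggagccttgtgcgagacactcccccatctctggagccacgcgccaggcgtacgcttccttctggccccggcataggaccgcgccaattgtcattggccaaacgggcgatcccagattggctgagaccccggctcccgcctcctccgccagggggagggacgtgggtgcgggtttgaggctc
The Cdx2 window holds an octamer that begins 147 bases before the start and an AP-2 motif that begins 16 bases before it. The Plet1 window holds an octamer at 73 bases and a TATA box at 30 bases. Of 32851 promoter windows of this length in the table, 1.60% hold the octamer, 13.7% the AP-2 motif, 12.4% the TATA box, 9.99% the GATA motif, 12.6% the TEAD motif and 32.7% the GC box. No overlapping matches occur in these 4 windows. Plac1 has 1 GATA match, 246 bases before its outer start, and Ascl2 has 1 GC box at 196 bases. Windows not shown are those of Ets2, Elf5 and Tfap2a, and the inner one of Plac1. Of these genes, Tfap2a was highest in LAMP2A, as were Cdx2 and Plac1. Tfap2a has a GC box at 161 bases before 1 start and at 13 bases before the other. Ets2 has a GC box at 233 bases, and Elf5 a TEAD match at 173 bases before 1 of its starts. The bases just after that Elf5 start were not found in a GENCODE M21 transcript of the gene. The inner Plac1 window has a GC box at 68 bases. None of the windows not shown holds an octamer. CpG pairs numbered 13 in the Cdx2 window, 3 in Plet1, 2 in Plac1 and 19 in Ascl2, against a median of 6 over all windows. A match says only that these letters occur in the window.

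The caudal homeobox genes Cdx1 and Cdx2 moved in opposite directions. Cdx2 (mm10 chromosome 5, 147300805–147307270, 3 exons), the factor that specifies the trophectoderm, had 0.0421, 0.116 and 0.133 CPM in LAMP2A+DM-αKG, 3.13, 3.51 and 2.91 CPM in LAMP2A, and 0.206, 0.296 and 0.297 CPM in VT. No groups overlapped, and LAMP2A stood far above both others. Cdx2 was higher in LAMP2A than in VT by a log2 fold change of 3.55 (SE 0.33, adjusted p = 2.34e-16), or 11.9-fold by summed counts (95% counting interval 7.66 to 19.6). With DM-αKG it was lower than in LAMP2A by a log2 fold change of -4.93 (SE 0.52, adjusted p = 8.53e-18). It was then also lower than in VT (log2 fold change -1.38, SE 0.60, adjusted p = 0.0263), from 8 counts in the LAMP2A+DM-αKG libraries together against 21 in VT. This last call was lost in DESeq2 (adjusted p = 0.0535) and without VT replicate 2, VT replicate 3 or LAMP2A+DM-αKG replicate 1 (adjusted p = 0.0685, 0.0685 and 0.107; 0.0236 to 0.107 over all alternatives).

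Cdx1 (chromosome 18, 61018862–61036199), a relative of Cdx2 that acts mainly in the posterior embryo and the intestine, had 1.72, 2.04 and 2.43 CPM in LAMP2A+DM-αKG, 0.608, 0.714 and 0.859 CPM in LAMP2A, and 2.34, 2.40 and 2.57 CPM in VT. The LAMP2A libraries lay below all others, and those of the other groups overlapped. Cdx1 was lower in LAMP2A than in VT (log2 fold change -1.76, SE 0.21, adjusted p = 2.43e-10) and higher with DM-αKG than without (1.53, SE 0.21, adjusted p = 1.16e-08). Between LAMP2A+DM-αKG and VT it was not called (adjusted p = 0.218), and the ratio of summed counts was 0.857 with a 95% counting interval of 0.692 to 1.06. The third caudal gene, Cdx4, had 2 counts in LAMP2A+DM-αKG, 3 in LAMP2A and 7 in VT over the 3 libraries of each group, too few to test.

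Elf5 (chromosome 2, 103411688–103450989), which encodes an ETS factor of trophoblast stem cells, had no count in the LAMP2A+DM-αKG or VT libraries. In LAMP2A it had 1, 1 and 0 counts. No group stood above the level that a count of 0 allows, so that no change in Elf5 was detectable at this depth. Among its relatives, Elf1 averaged 15.4 ± 0.228 CPM in LAMP2A+DM-αKG, 41.8 ± 0.518 in LAMP2A and 13.2 ± 1.65 in VT. Elf2 was called higher in LAMP2A than in VT and lower with DM-αKG, by small amounts (log2 fold changes 0.34 and -0.47). Elf3 averaged 58.6 ± 1.64 CPM in LAMP2A+DM-αKG, 35.7 ± 1.27 in LAMP2A and 33.3 ± 2.63 in VT, and was higher with DM-αKG than in either other group (log2 fold changes 0.71 and 0.82). Elf4 was slightly higher with DM-αKG (0.21 for LAMP2A+DM-αKG against LAMP2A and 0.14 against VT), and Ehf, at 0.160, 0.372 and 0.190 CPM in LAMP2A+DM-αKG, LAMP2A and VT, was not tested.

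The AP-2 factor genes differed in the size of their change. Tfap2a (chromosome 13, 40715302–40738376, 12 exon blocks), which acts in trophoblast and also in surface ectoderm and neural crest, had 0.715, 0.847 and 0.765 CPM in LAMP2A+DM-αKG, 6.66, 8.45 and 6.68 CPM in LAMP2A, and 1.15, 0.813 and 0.521 CPM in VT. All LAMP2A libraries were above the rest, and those of the other groups overlapped. Tfap2a was higher in LAMP2A than in VT by a log2 fold change of 3.15 (SE 0.19, adjusted p = 7.77e-19). It was lower with DM-αKG than without by -3.22 (SE 0.19, adjusted p = 5.48e-19). Against VT the LAMP2A+DM-αKG libraries had 0.950 times the level (95% counting interval 0.659 to 1.37, adjusted p = 0.844). Antisense transcripts of Gm26688 overlap 7.75% of the Tfap2a exon bases in GENCODE M21, and Gm26688 itself had 11 counts in LAMP2A and none in the other groups.

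Tfap2c (chromosome 2, 172549593–172558622), whose product works with CDX2 in trophoblast and also in germ cells and naive ES cells, was counted well in every group. It had 26.5, 26.8 and 25.1 CPM in LAMP2A+DM-αKG, 29.1, 30.7 and 30.6 CPM in LAMP2A, and 22.5, 23.4 and 22.8 CPM in VT. The groups did not overlap, but they lay close together. Tfap2c was higher in LAMP2A than in VT (log2 fold change 0.40, SE 0.049, adjusted p = 4.84e-09), lower with DM-αKG than without (-0.21, SE 0.048, adjusted p = 1.77e-04) and higher in LAMP2A+DM-αKG than in VT (0.19, SE 0.0515, adjusted p = 0.00224). Of the other AP-2 genes, Tfap2e stayed under 1 CPM (0.336 ± 0.0917, 0.724 ± 0.100 and 0.368 ± 0.0692 CPM in LAMP2A+DM-αKG, LAMP2A and VT). Tfap2b had 29 counts in LAMP2A and none elsewhere, at least 8.23-fold higher in LAMP2A than in VT with the VT group set at 3 counts, and Tfap2d had none in any library.

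Dlx3 and Ascl2 were high in LAMP2A cells and stayed well above VT in cells given DM-αKG. Dlx3 (chromosome 11, 95120119–95125296, 3 exons), a homeobox gene needed for the labyrinth of the placenta and active in skin, had 2.82, 2.77 and 2.96 CPM in LAMP2A+DM-αKG, 3.04, 3.48 and 3.06 CPM in LAMP2A, and 0.576, 0.444 and 0.483 CPM in VT. Both groups that carry LAMP2A lay above VT with no overlap. Dlx3 was higher in LAMP2A than in VT by a log2 fold change of 2.67 (SE 0.25, adjusted p = 4.08e-15), and higher in LAMP2A+DM-αKG than in VT by 2.51 (SE 0.25, adjusted p = 6.33e-13). Between LAMP2A+DM-αKG and LAMP2A the ratio of summed counts was 0.893 with a 95% counting interval of 0.748 to 1.06, and the difference was not called (adjusted p = 0.22). The LAMP2A+DM-αKG libraries were all lower than the LAMP2A ones by a small margin.

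The other Dlx genes followed another course. Dlx1 averaged 0.113 ± 0.0367 CPM in LAMP2A+DM-αKG, 1.52 ± 0.220 in LAMP2A and 0.0494 ± 0.0428 in VT, and Dlx2 averaged 0.118 ± 0.0742, 2.87 ± 0.485 and 0.0631 ± 0.0191 CPM in the same groups. Dlx5 had 1 count in LAMP2A+DM-αKG, 117 in LAMP2A and none in VT. It was thus at least 33.2-fold higher in LAMP2A than in VT, with the VT group set at 3 counts. Dlx6 had 2, 38 and 0 counts. Dlx4, the neighbour of Dlx3, averaged 1.38 ± 0.0136 CPM in LAMP2A+DM-αKG, 0.230 ± 0.0391 in LAMP2A and 0.674 ± 0.127 in VT, and was lower in LAMP2A than in VT by a log2 fold change of -1.55. With DM-αKG it was higher than in LAMP2A and than in VT (log2 fold changes 2.57 and 1.02).

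Ascl2 (chromosome 7, 142966829–142969264), an imprinted gene for a bHLH factor of the spongiotrophoblast that is transcribed from the maternal copy in placenta, had 4.84, 5.12 and 5.42 CPM in LAMP2A+DM-αKG, 4.32, 4.53 and 4.14 CPM in LAMP2A, and 1.65, 1.74 and 1.78 CPM in VT. The VT libraries were lowest, and no groups overlapped. Ascl2 was higher in LAMP2A than in VT by a log2 fold change of 1.33 (SE 0.14, adjusted p = 1.5e-11). It was higher in LAMP2A+DM-αKG than in VT by 1.57 (SE 0.14, adjusted p = 9.53e-13). The small further difference between LAMP2A+DM-αKG and LAMP2A (0.25, SE 0.10, adjusted p = 0.0224) was lost in DESeq2 (adjusted p = 0.169) and without LAMP2A replicate 3 or LAMP2A+DM-αKG replicate 3 (adjusted p = 0.0677 and 0.104; 0.0173 to 0.169 over all alternatives). The authors' deposited table gives it an adjusted p of 0.115.

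Ets2 (chromosome 16, 95702075–95721051), an ETS factor gene that trophoblast stem cells need, was the most counted of the 10 genes. It had 45.5, 48.7 and 45.4 CPM in LAMP2A+DM-αKG, 39.2, 40.1 and 37.0 CPM in LAMP2A, and 52.8, 52.6 and 52.3 CPM in VT. The groups did not overlap, with LAMP2A lowest and VT highest. Ets2 was lower in LAMP2A than in VT (log2 fold change -0.44, SE 0.042, adjusted p = 1.14e-11), higher with DM-αKG than without (0.26, SE 0.0425, adjusted p = 1.15e-06) and lower in LAMP2A+DM-αKG than in VT (-0.18, SE 0.042, adjusted p = 4.64e-04). Its close relative Ets1, a factor of endothelium and mesenchyme, averaged 2.16 ± 0.183 CPM in LAMP2A+DM-αKG, 60.6 ± 0.599 in LAMP2A and 1.06 ± 0.213 in VT, so that it was higher in LAMP2A by a log2 fold change of 5.85 while Ets2 was lower.

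**Figure D2:**
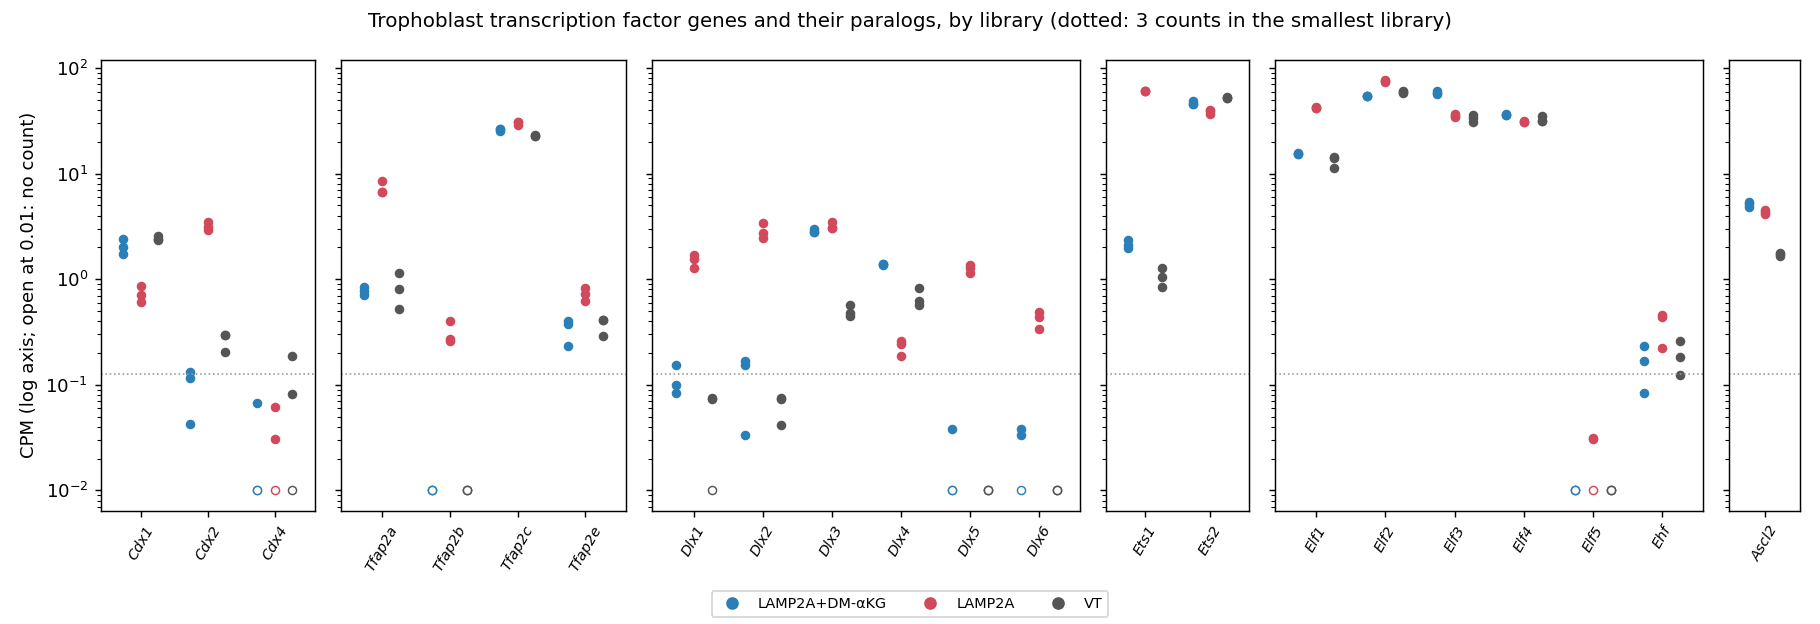
CPM on a log axis of the Cdx, AP-2, Dlx, Ets, Elf (with Ehf) genes and Ascl2 in each library of LAMP2A+DM-αKG, LAMP2A and VT; open points at 0.01 are libraries with no count, and the dotted line is 3 counts in the smallest library. Dlx3 and Ascl2 are high in both LAMP2A groups, whereas Dlx1, Dlx2, Dlx5 and Ets1 are high in LAMP2A alone, and Dlx4 and Cdx1 are lowest there.

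The surface and placental markers were Plet1 and Plac1. Plac1 (chromosome X, 53069995–53240111), an X-linked gene known for its expression in placenta, had no count in the LAMP2A+DM-αKG libraries, 129, 113 and 96 counts in LAMP2A (3.92, 3.51 and 3.58 CPM), and 0, 1 and 0 counts in VT. It was counted in substance in LAMP2A alone. The LAMP2A level was 288-fold that of VT, with a 95% counting interval of 51.3 to 11404 (adjusted p = 1.14e-18), and the single VT count was in replicate 2. In LAMP2A+DM-αKG it was at least 97.9-fold lower than in LAMP2A, with the LAMP2A+DM-αKG group set at 3 counts (adjusted p = 7.24e-19). LAMP2A+DM-αKG and VT were both at or under that limit.

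Plet1 (chromosome 9, 50494525–50505482), which encodes a membrane-anchored protein of trophoblast progenitors and other epithelia, had 5.97, 6.66 and 6.85 CPM in LAMP2A+DM-αKG, 9.24, 8.54 and 8.70 CPM in LAMP2A, and 5.76, 5.99 and 5.32 CPM in VT. LAMP2A lay above both other groups, which overlapped. Plet1 was higher in LAMP2A than in VT (log2 fold change 0.64, SE 0.085, adjusted p = 2.11e-08) and lower with DM-αKG than without (-0.44, SE 0.082, adjusted p = 1.02e-05). Between LAMP2A+DM-αKG and VT it was not called (0.20, SE 0.093, adjusted p = 0.0666), though it passed without VT replicate 2 or without LAMP2A+DM-αKG replicate 1 (adjusted p = 0.0498 and 0.0351; 0.0351 to 0.23 over all alternatives). The antisense gene Plet1os, which overlaps 13.4% of the Plet1 exon bases, had 1, 5 and 0 counts in LAMP2A+DM-αKG, LAMP2A and VT.

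**Figure D3:**
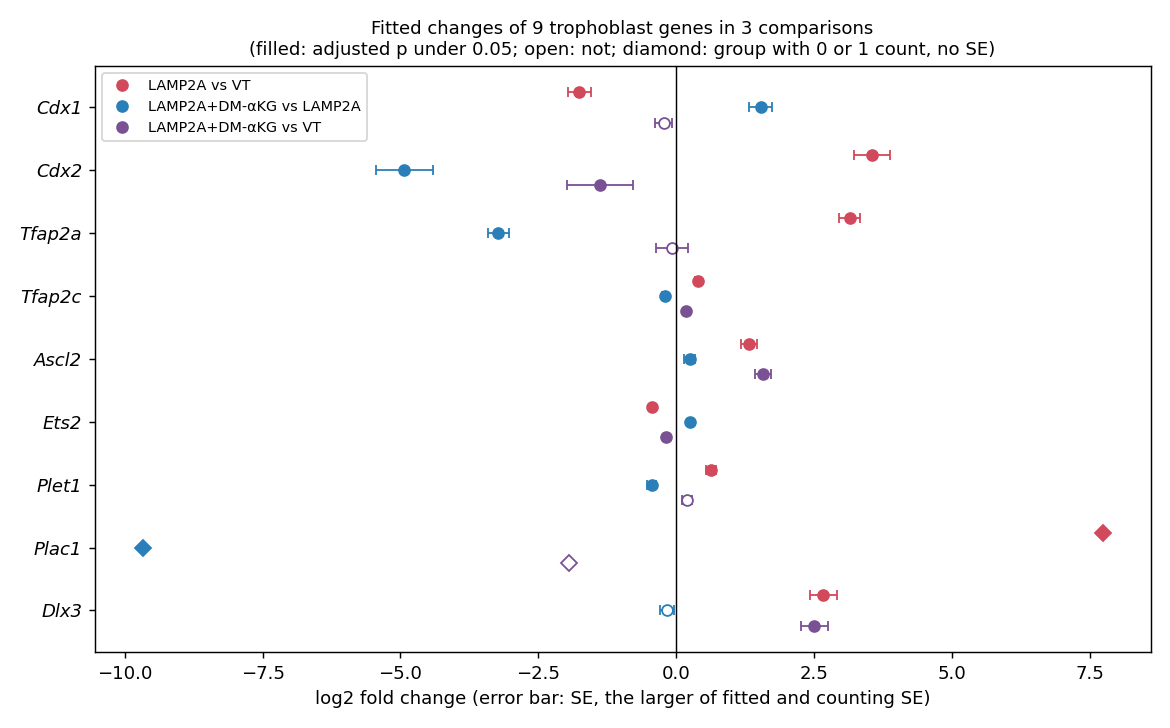
Log2 fold change of the 9 tested genes in LAMP2A vs VT, LAMP2A+DM-αKG vs LAMP2A and LAMP2A+DM-αKG vs VT; bars are the SE (the larger of fitted and counting SE), filled points passed an adjusted p of 0.05, and diamonds are fitted values of Plac1 that rest on groups with 0 or 1 count. Dlx3 and Ascl2 lie near 0 for LAMP2A+DM-αKG vs LAMP2A and at 2.51 and 1.57 for LAMP2A+DM-αKG vs VT.

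Ordered by CPM per kilobase of exon (GENCODE M21 exon lengths), the 10 genes changed places between groups. In LAMP2A+DM-αKG the order was Ets2 (8.05 CPM per kb), Tfap2c (7.10), Plet1 (3.33), Ascl2 (3.16), Cdx1 (1.18), Dlx3 (1.09), Tfap2a (0.158) and Cdx2 (0.0428), with Plac1 and Elf5 at 0. In LAMP2A it was Tfap2c (8.20), Ets2 (6.71), Plet1 (4.53), Ascl2 (2.67), Plac1 (2.63), Tfap2a (1.48), Cdx2 (1.41), Dlx3 (1.23), Cdx1 (0.415) and Elf5 (0.00349). In VT it was Ets2 (9.10), Tfap2c (6.22), Plet1 (2.92), Cdx1 (1.39), Ascl2 (1.06), Dlx3 (0.192), Tfap2a (0.169), Cdx2 (0.118) and Plac1 (0.00883), with Elf5 at 0. Neighbours whose libraries overlapped were Plet1 with Ascl2 and Cdx1 with Dlx3 in LAMP2A+DM-αKG, Ascl2 with Plac1, Tfap2a with Cdx2 and Cdx2 with Dlx3 in LAMP2A, and Dlx3 with Tfap2a, Tfap2a with Cdx2 and Plac1 with Elf5 in VT.

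Likeness of pattern was measured as the root mean square difference of log2 CPM over the 9 libraries, each gene centred on its mean, against 12326 other genes (mean of 1 CPM or more). The closest gene was Slc25a35 for Cdx1 (0.140), Afap1l2 for Cdx2 (0.213), Pgf, which encodes placental growth factor, for Tfap2a (0.195), Tlr2 for Tfap2c (0.0314), Pfkfb3 for Ascl2 (0.133), Lig4 for Ets2 (0.0309), Fam214b for Plet1 (0.0473), Has2 for Plac1 (0.236) and Anxa2 for Dlx3 (0.220). Small values go with genes that changed little. Among the 9 tested genes themselves, Tfap2c and Plet1 were closest to each other (0.141), as were Dlx3 and Ascl2 (0.547) and Cdx2 and Tfap2a (0.792).

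Other genes of the trophoblast programme were read beside the same background of 43.0% of all tested genes higher and 42.1% lower in LAMP2A than in VT. The shares were 41.1% higher and 42.1% lower for LAMP2A+DM-αKG against LAMP2A, and 29.3% and 29.4% for LAMP2A+DM-αKG against VT. They are to be read beside the counts of each list that follows. Of 15 genes of the trophoblast stem state, 13 were tested, with 8 higher and 4 lower in LAMP2A than in VT (median log2 fold change 0.50). Gata3, a factor of early trophectoderm, averaged 0.567 ± 0.0551 CPM in LAMP2A+DM-αKG, 32.95 ± 0.152 in LAMP2A and 0.218 ± 0.0306 in VT. The growth factor receptor gene Fgfr2 and Id2 were higher in LAMP2A by log2 fold changes of 4.71 and 4.64, while Esrrb, shared by naive ES cells and trophoblast stem cells, was lower (-2.56). Tead4, the factor upstream of Cdx2 in the embryo, was singled out after its values were seen. It was also lower in LAMP2A, at 72.4 ± 0.657 CPM in LAMP2A+DM-αKG, 27.2 ± 1.70 in LAMP2A and 59.2 ± 2.98 in VT. With DM-αKG 4 of these genes were higher than in LAMP2A and 8 lower (median -0.52), with log2 fold changes of -5.86 for Gata3, -2.99 for Fgfr2, -3.41 for Id2 and 2.22 for Esrrb. Eomes, singled out after its values were seen, averaged 20.9 ± 0.501 CPM in LAMP2A+DM-αKG, 18.1 ± 0.857 in LAMP2A and 9.74 ± 0.461 in VT, and was called higher in both LAMP2A groups than in VT. Against VT, LAMP2A+DM-αKG had 7 higher and 5 lower (median 0.23).

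Of 11 genes of trophectoderm epithelium, 7 were higher and 3 lower in LAMP2A than in VT (median log2 fold change 1.93), 3 higher and 8 lower with DM-αKG than without (median -1.50), and 5 higher and 2 lower in LAMP2A+DM-αKG than in VT (median 0.39). The keratin genes Krt18, Krt8 and Krt19 were higher in LAMP2A than in VT by 5.83, 4.06 and 5.07. The keratin gene Krt42, named after its values were seen, was lower in LAMP2A (-3.58) and higher with DM-αKG than without (2.66). The water channel gene Aqp3 averaged 162 ± 3.93 CPM in LAMP2A+DM-αKG, 13.2 ± 0.271 in LAMP2A and 165 ± 10.4 in VT. With DM-αKG the log2 fold changes against LAMP2A were -5.27 for Krt18, -3.68 for Krt8, 3.61 for Aqp3 and 1.37 for the sodium pump gene Atp1b1.

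Of 22 genes of differentiated trophoblast, 12 were tested. In LAMP2A 10 of them were higher than in VT and 2 lower (median 4.57), with DM-αKG 2 were higher and 10 lower than in LAMP2A (median -3.48), and in LAMP2A+DM-αKG 7 were higher and 1 lower than in VT (median 0.40). Hand1, needed for trophoblast giant cells and also a mesoderm factor, averaged 0.359 ± 0.238 CPM in LAMP2A+DM-αKG, 59.8 ± 2.47 in LAMP2A and 0.294 ± 0.0752 in VT. It reached the test through its LAMP2A libraries, and the medians of this list leave out the genes too low to test. Peg10, an imprinted gene required for the placenta, averaged 281 ± 4.17, 2995 ± 13.5 and 217 ± 15.7 CPM in the same groups. Mmp9 and Flt1 were higher in LAMP2A than in VT by log2 fold changes of 5.10 and 6.22 and lower with DM-αKG by -6.22 and -4.91. The defining placental genes Tpbpa, Prl3d1, Prl2c2, Prl3b1, Ctsq, Ctsj and Synb had no count in any of the 9 libraries. Gcm1, Syna and Pcdh12 were too low to test. Gcm1 had 25, 44 and 15 counts in LAMP2A+DM-αKG, LAMP2A and VT, Pcdh12 had 0, 17 and 0, and Syna had 3, 12 and 10. The LAMP2A libraries lay above those of VT for Gcm1 and Pcdh12, and overlapped them for Syna.

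**Figure D4:**
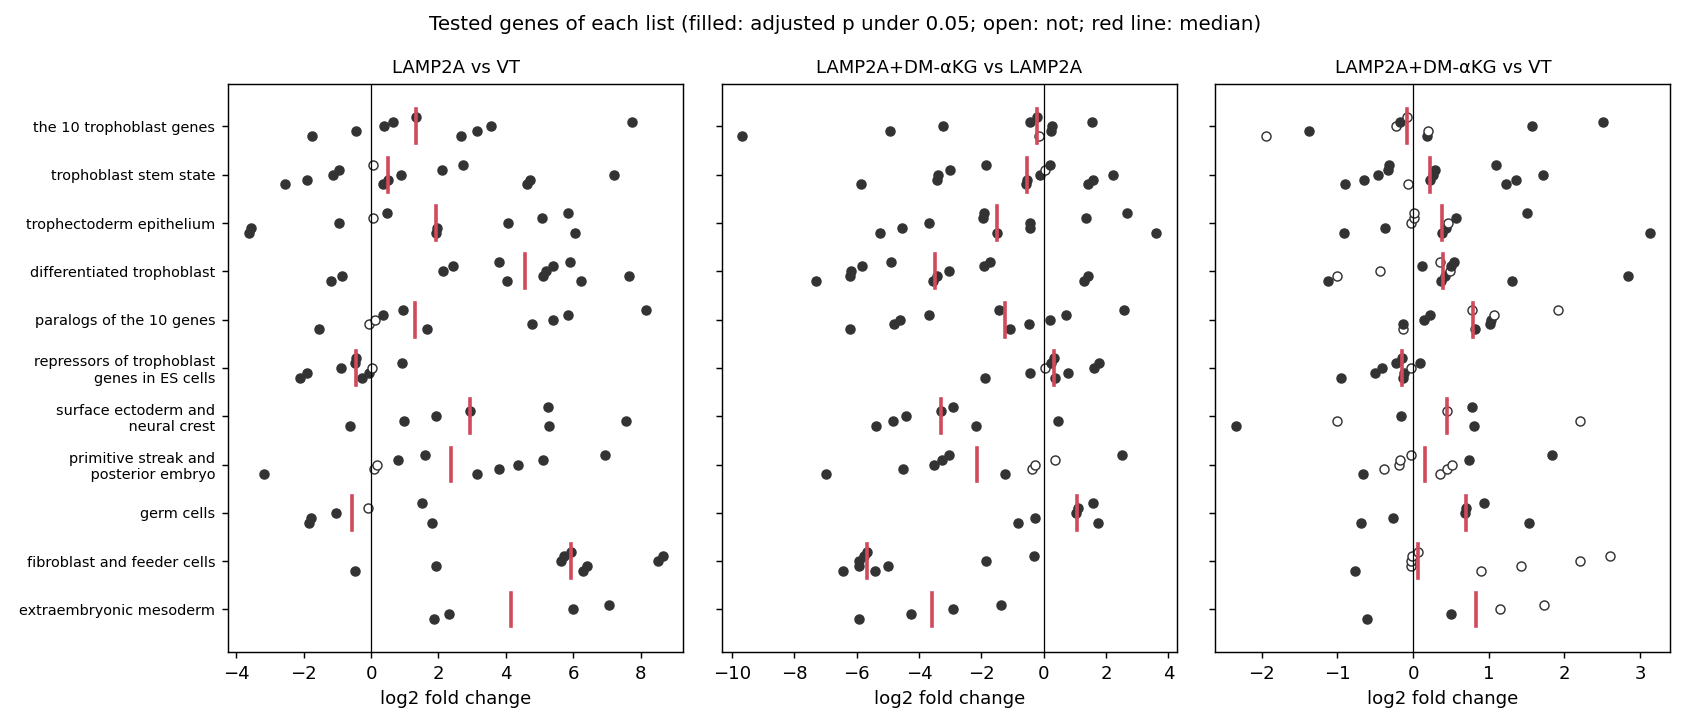
Log2 fold changes of the tested genes of the 10 trophoblast genes and 10 further lists in the 3 comparisons; points are genes, filled where the adjusted p was under 0.05, and red lines are medians. Medians of the differentiated trophoblast list lie at 4.57, -3.48 and 0.40, and those of the fibroblast list at 5.92, -5.66 and 0.07. They leave out genes too low to test, while genes high in LAMP2A alone reached the test through that group. This favours large values in LAMP2A vs VT and LAMP2A+DM-αKG vs LAMP2A.

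A further list held 9 genes taken as repressors of trophoblast genes in ES cells, though they may have other roles. LAMP2A had 1 higher and 7 lower than VT. Of the lower ones, 2 were lower by at least 2-fold, as were 9.61% of all tested genes. The median was -0.46, against 43.0% higher and 42.1% lower over all tested genes. LAMP2A+DM-αKG had 6 higher and 2 lower than LAMP2A (median 0.34), and 1 higher and 7 lower than VT (median -0.15). Pou5f1, Nanog and Sox2 were lower in LAMP2A than in VT by log2 fold changes of -2.10, -1.89 and -0.90, and higher with DM-αKG than without by 1.60, 1.76 and 0.78. Of the de novo methyltransferase genes, Dnmt3a was higher in LAMP2A (0.92) and lower with DM-αKG (-1.87). Dnmt3b, named after its values were seen, was not called in LAMP2A against VT (0.018, adjusted p = 0.614) and was lower with DM-αKG (-0.43).

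Many of the 10 genes are also used by other tissues, and markers of these were measured beside them. Over all tested genes 43.0% were called higher and 42.1% lower in LAMP2A than in VT. With DM-αKG these shares were 41.1% and 42.1% against LAMP2A, and 29.3% and 29.4% against VT. Of 11 genes of surface ectoderm and neural crest, 7 were tested, with 6 higher and 1 lower in LAMP2A than in VT (median 2.95) and 1 higher and 6 lower with DM-αKG (median -3.31). In LAMP2A+DM-αKG 2 were higher and 2 lower than in VT (median 0.45). Msx1 and Msx2 were higher in LAMP2A by 5.27 and 5.24 and lower with DM-αKG by -4.82 and -4.43, and Grhl3 was lower in LAMP2A (-0.62) and higher with DM-αKG (0.46). The epidermal markers Krt5, Krt14 and Trp63 were too low to test. Trp63 had 1 count in LAMP2A+DM-αKG, 30 in LAMP2A and 1 in VT, so that LAMP2A was 25.6-fold VT (95% counting interval 4.25 to 1042). Krt14 had 0, 21 and 7 counts in the same groups, and its LAMP2A libraries lay above all others, while Krt5 had 2, 4 and 3. The summed level of the list was 38.4 to 39.2 CPM in LAMP2A+DM-αKG, 84.9 to 87.2 in LAMP2A and 43.4 to 44.8 in VT.

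Of 11 genes of the primitive streak and posterior embryo, 10 were tested. In LAMP2A 7 were higher and 1 lower than in VT (median 2.37), with DM-αKG 1 was higher and 6 lower (median -2.14), and against VT LAMP2A+DM-αKG had 2 higher and 1 lower (median 0.16). Hoxb9 was higher in LAMP2A by 3.78 and lower with DM-αKG by -3.04, and the summed level was 7.47 to 8.50 CPM in LAMP2A+DM-αKG, 48.7 to 53.8 in LAMP2A and 5.87 to 6.17 in VT. Hoxb9 alone averaged 32.0 CPM in LAMP2A. Of streak genes named after their values were seen, T was higher in LAMP2A than in VT (0.79) and Wnt3a lower (-3.17). Mixl1 and Tbx6 were not called there (0.18 and 0.10, adjusted p = 0.429 and 0.746). Of 7 germ cell genes, 6 were tested. LAMP2A had 2 higher (Ddx4 by 1.82 and Prdm1 by 1.52) and 3 lower than VT, among them Prdm14 (-1.83) and Kit (-1.05), with a median of -0.57. LAMP2A+DM-αKG had 4 higher and 2 lower than LAMP2A (median 1.06), with Kit at 1.74, Prdm14 at 1.57, Dazl at 1.03 and Prdm1 at -0.81, and 4 higher and 2 lower than VT (median 0.70). Summed germ cell levels were 388 to 397 CPM in LAMP2A+DM-αKG, 189 to 193 in LAMP2A and 253 to 258 in VT.

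Of 11 fibroblast and feeder markers, 9 were tested, and 8 were higher and 1 lower in LAMP2A than in VT (median 5.92), none higher and 9 lower with DM-αKG (median -5.66), and none higher and 1 lower in LAMP2A+DM-αKG than in VT (median 0.07). Col1a1, Col3a1 and Pdgfrb were higher in LAMP2A by 5.92, 8.53 and 1.92, and lower with DM-αKG by -5.93, -5.93 and -1.85. The 1 lower marker, Thy1, named after its values were seen, changed by -0.47 in LAMP2A against VT and by -0.30 with DM-αKG. Col3a1 had 42, 2 and 1 counts in the LAMP2A+DM-αKG libraries, and without replicate 1 its value against LAMP2A was -9.23. The summed level was 7.08 to 10.3 CPM in LAMP2A+DM-αKG, 131 to 132 in LAMP2A and 8.58 to 9.67 in VT, with Fap at 0 in LAMP2A and Lum and Fap at 0 in VT. All 4 extraembryonic mesoderm genes were higher in LAMP2A than in VT (median 4.16), among them Foxf1 by 7.06 and Tbx20 by 1.87, and all 4 were lower with DM-αKG (median -3.60), these by -5.91 and -1.37. Their summed level was 8.58 to 9.32 CPM in LAMP2A+DM-αKG, 38.8 to 40.2 in LAMP2A and 6.40 to 7.10 in VT, and LAMP2A+DM-αKG had 1 higher and 1 lower than VT (median 0.83). The summed surface ectoderm, posterior, fibroblast and extraembryonic mesoderm levels were highest in LAMP2A, as were Cdx2, Tfap2a and Plac1, and their part in the changes of the 10 genes was not tested. The 16 listed relatives of the 10 genes had 10 tested, with 7 higher and 1 lower in LAMP2A than in VT (median 1.30), 3 higher and 7 lower with DM-αKG (median -1.26), and 5 higher and 1 lower in LAMP2A+DM-αKG than in VT (median 0.80).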

How the data were processed

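The deposited count table gives unnormalized whole-number read counts by gene symbol for 9 libraries, made from stranded mRNA libraries per the labels' protocols. Build mm10 and the tools STAR 2.7.1, HTSeq 0.11.2 and DESeq2 come from the submitters' processing notes. Which annotation and strand setting went into the counting is not given in the sources used here. Genes with antisense partners are therefore less certain. The authors' deposited comparison tables contain log2 fold changes, their errors, p-values, a mean signal and a score of the test, per the file headers.

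The fit used edgeR 4.0.16 under R 4.3.3 (filterByExpr, TMM, robust glmQLFit, glmQLFTest) over all 9 libraries, with 6 residual degrees of freedom. Calls use a Benjamini-Hochberg adjusted p under 0.05 over 14513 genes. The filter keeps a gene that is counted well in 1 group only. Cdx2, Plac1, Hand1 and Col3a1 passed it through their LAMP2A libraries, as did other listed genes, among them Foxf1, Dlx1, Dlx2 and Dlx5. Genes low in every group were left out. Medians and counts over the tested genes of a list therefore do not describe the whole list. The common biological coefficient of variation was 2.74%. The SE printed is the larger of the fitted SE and the counting SE, since the fitted one was smaller in 16 of 25 cases. The p-values rest on the fit and its SE, not on the larger SE printed. Where the counting SE is the larger, they may be too small. For Plac1 in LAMP2A against VT the fitted SE was 0.389 and the counting SE 1.44. The fit was tested on simulated counts. Chi-square per degree of freedom between replicates was 1.19 to 1.91 in LAMP2A+DM-αKG, 1.50 to 2.44 in LAMP2A and 3.08 to 5.93 in VT, so none were merged. The fit shares 1 estimate of spread per gene over all groups, so that p-values against VT may be too small.

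The 10 genes, the 10 other lists (117 genes) and the rules were chosen with earlier results of these data known. Listed genes are named by the smallest p, up to 4 a list, at a mean of at least 5 CPM, and relatives of the 10 genes at 1 CPM or more in any group. Other genes named, relatives below that level included, were singled out after their values were seen. A single listed relative is not reported here. Exon lengths and overlaps are from GENCODE M21, promoters from RefSeq. Alternatives were another scaling, 2 filters, DESeq2 1.42.0, the 6 compared libraries alone, a replicate block and each library left out.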

Additional observations from a re-analysis of the deposited data

How the results depend on the processing

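Of 385 log2 fold changes of the 9 tested genes under the alternatives, 374 kept their direction and side of the threshold, 7 lost and 2 gained a call, and 2 uncalled values changed sign or came to 0. For LAMP2A+DM-αKG against VT, these uncalled values moved so when single libraries were left out, with ranges of -0.32 to 0.22 for Tfap2a (0.22 without VT replicate 1) and -2.42 to 0.00 for Plac1 (VT replicate 2). Among named list genes there, the ranges were -0.077 to 0.014 for Aqp3 (VT replicate 2), -0.40 to 0.65 for Hand1 (LAMP2A+DM-αKG replicate 3), -0.37 to 0.16 for Col1a1 (positive without VT replicate 3 or LAMP2A+DM-αKG replicate 2 or 3), -0.021 to 0.17 for Pdgfrb (LAMP2A+DM-αKG replicate 2) and -0.69 to 3.24 for Col3a1 (LAMP2A+DM-αKG replicate 1).

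Requiring a mean of at least 5 CPM left 3 of the 10 genes to test. It gave 2 higher and 1 lower for LAMP2A against VT (3 in all), 1 higher and 2 lower for LAMP2A+DM-αKG against LAMP2A (3 in all), and 1 higher and 1 lower against VT (2 in all), because fewer genes were tested. For LAMP2A+DM-αKG against VT, 1 gene in place of 2 was lower in DESeq2 and in the 6-library fit, which did not test Cdx2, and 1 to 2 with single libraries left out.

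Replicate numbers did not pair the libraries: correlations of deviations were -0.027 to 0.012 for equal numbers and -0.02 to 0.034 for others. With the replicate block the counts of the 10 genes were 9, 8 and 5 in the comparisons in the order above. Depth limits Elf5 in all groups, and Plac1 and Cdx2 outside LAMP2A.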
